A study of Mus musculus with 86 samples.

Results

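The response of brain and thymus to the loss of 1 working copy of Dll1 was compared within the same 5 C3H mice, on 20 of the 86 arrays of the series. The members were the 10 arrays titled as Dll1 C3H brain and the 10 titled as Dll1 C3H thymus. Each array carried RNA of 1 organ from a single male mouse, heterozygous (+/-) for Dll1 and 15 weeks old per the labels, together with a pool of RNA of the same organ from male wild-type C3H mice of the same age. The labels list 5 mice in that pool, while their protocol text names a larger number. The allele is Dll1tm1Gos, in which an inserted lacZ gene disrupts the coding sequence, outcrossed to C3HeB/FeJ, and it is present in every cell of the mouse. Each mouse and organ had 1 array with the heterozygous RNA in Cy5 and 1 with it in Cy3, and the mice are numbered 1 to 5. Liver (10 arrays) and spleen (9 arrays) of the same strain are cited only beside single genes.

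Dll1 encodes Delta-like 1, a membrane ligand that binds Notch receptors on a neighbouring cell. Binding leads to cleavage of the receptor, and its intracellular part enters the nucleus, where it joins the DNA-binding protein RBPJ and a Mastermind coactivator to switch on genes such as those of the Hes and Hey repressors. In the thymus Notch1 commits blood progenitors to the T cell fate, with Dll4 on thymic epithelium as the main ligand there. In the brain Notch holds neural stem cells back from differentiating, and Dll1 is among the ligands that act on them.

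Every value is a log2 ratio, heterozygous over wild type, averaged per mouse and organ over its 2 arrays, so that 0 means equal signal and a positive value a higher signal in the heterozygous mouse. The value table does not name the numerator, and no check of the overall sign independent of the study was found. For whether the ratios of both dye orientations were turned to 1 direction, the correlations between arrays are weak evidence in brain. The constant extreme value of an array, set to missing here, was positive on every brain and thymus array with the heterozygous RNA in Cy5. It was negative on every brain and thymus array with that RNA in Cy3. Turned ratios would show this change of sign if the value arose in 1 dye channel, which was not tested. The Spearman correlation between the 2 arrays of a mouse had a median of 0.022 in brain (range −0.031 to 0.11) and of 0.061 in thymus (0.032 to 0.14), whereas arrays of different mice with the same dye had medians of 0.16 in brain and 0.13 in thymus. Arrays of different mice with opposite dyes had medians of −0.026 in brain and −0.017 in thymus. These correlations are over the same spots of all arrays, and those within 1 dye orientation also share the dye, so they are given as a description. A brain array held 19560 to 20489 usable values and a thymus array 19208 to 20532, and array medians lay between −0.026 and 0.036 in brain and between −0.058 and 0.053 in thymus. The interquartile range of an array was 0.37 to 0.53 in brain and 0.31 to 0.79 in thymus, with the Cy3 array of thymus mouse 1 the widest. Since the wild-type pool is 1 control sample per organ, all tests leave out the spread between wild-type mice. The ratios give no levels, so the identity of the tissue could not be checked against its defining markers, and in whole organs fewer cells of a type and less RNA per cell cannot be told apart.

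No gene passed the adjusted threshold of 0.05 for a brain minus thymus difference, and none for a shift shared by both organs. The difference was tested with limma on the 5 within-mouse differences, and the shared shift on the 5 within-mouse averages of both organs, over 19327 probes with both organs in at least 3 mice. For the difference 0 probes (0%) passed, with 0.3197 as the smallest adjusted p. The ratio was higher in brain than in thymus for 781 probes (4.04%) and lower for 567 (2.93%) at an unadjusted p under 0.05. For the shared shift 0 probes (0%) passed as well, 0.4735 being the smallest adjusted p, while 792 probes (4.10%) were higher and 1012 (5.24%) lower at an unadjusted p under 0.05. Whatever the p, the ratio was higher in brain for 10555 of the 19327 probes and lower for 8772 (45.39%). The mean ratio was below 0 for 46.5% of the probes in brain and 50.1% in thymus. These shares are the background for every count below, and none of the genes below passed the adjusted threshold in these tests.

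The 2 organs could also be compared by order alone in the 14770 probes with all 10 values. The brain values lay wholly above the thymus values for 209 probes (1.42%) and wholly below for 83 (0.562%). The value had 1 sign in both organs of all 5 mice for 42 probes on the higher side (0.284%) and for 92 on the lower side (0.623%). The SD of a probe over mice had a median of 0.236 in brain, 0.261 in thymus and 0.36 for the difference.

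**Figure D1:**
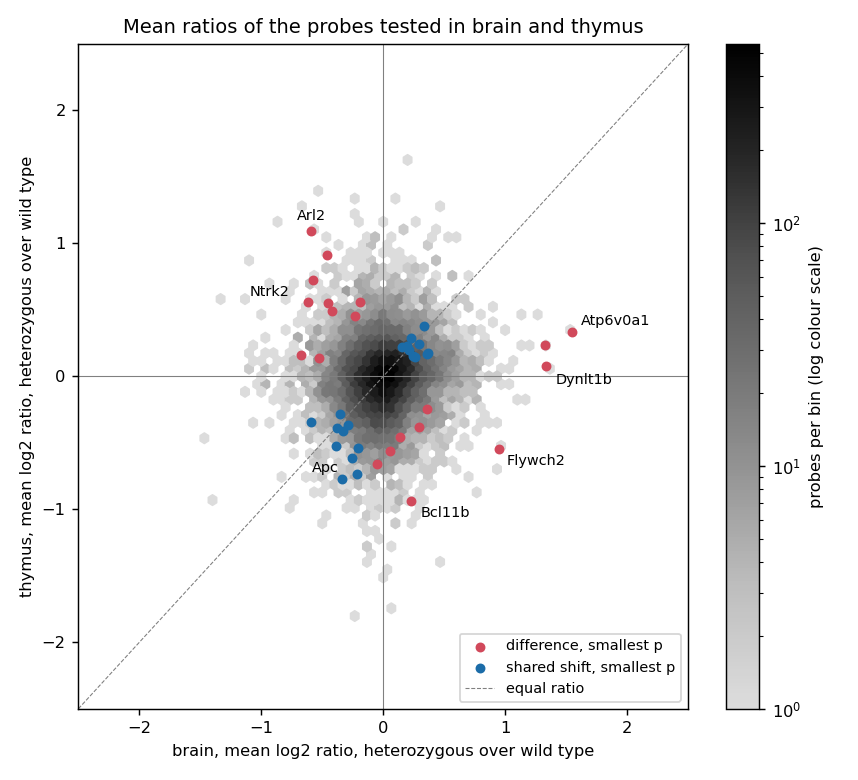
Mean log2 ratio in brain (horizontal axis) against thymus (vertical axis) for the 19327 probes tested, as bins shaded by their number of probes on a log colour scale. Red points are the 20 probes of smallest p for the difference, blue points the 20 of smallest p for the shared shift with 1 sign in both organs, and the dashed line marks equal ratios. Most probes lie near 0 in both organs, with Atp6v0a1 and Dynlt1b far to the right at a brain mean above 1.

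Dll1 was read by probes 5 and 20289, whose position relative to the insertion was not examined here. Probe 5 read −0.15, −0.15, −0.21, −0.06 and −0.32 in brain of mice 1 to 5, and −0.58, −0.54, −0.12, −0.43 and −0.62 in thymus. All 10 values lay below 0, and the organs overlapped through the −0.12 of mouse 3 in thymus. The mean was −0.18 ± 0.10 in brain and −0.46 ± 0.20 in thymus (SD, n = 5 each), a difference of 0.28 ± 0.22 (limma adjusted p = 0.717) and a shared shift of −0.32 ± 0.12 (limma adjusted p = 0.491). In liver of the same strain the same probe averaged 0.155 ± 0.433. Dll1 probe 20289 gave −0.018 ± 0.37 in brain and −0.10 ± 0.25 in thymus (SD, n = 5 each), with values on both sides of 0 in both organs. The probes of Dll1 therefore differed in their reading, and only probe 5 held 1 sign in all mice.

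Among the other ligands and the receptors no organ stood apart. Of the 9 probes of this list, 0 had an unadjusted p under 0.05 for the difference and 1, Dll1 probe 5, for the shared shift. The median of the list was −0.0185 in brain and −0.105 in thymus, beside 0.0123 and −0.0003 over all probes tested. Below 0 were 8 of 9 probes in thymus and 6 of 9 in brain, beside 50.1% and 46.5% of all probes. Dll3, a divergent ligand that acts within the cell making it, read 0.25 ± 0.55 in brain, where mouse 2 stood at 1.21, and −0.26 ± 0.48 in thymus. Notch2 and Notch3, receptors, had mean differences of −0.011 ± 0.65 (4 mice) and 0.025 ± 0.29 (5 mice). Jag1, a ligand of the Jagged type, averaged −0.064 ± 0.20 in brain and 0.13 ± 0.43 in thymus. No probe of Notch1 or Dll4 could be tested.

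Genes that modify or cleave the receptors leaned the same way as all probes or slightly more. Of 28 probes, 17 had the higher ratio in brain, beside 10555 of all 19327. The median difference was 0.097, beside 0.0236 over all probes. The difference reached an unadjusted p under 0.05 for 2 of the 28, both higher in brain. Adam17, a metalloprotease that can shed Notch receptors and their ligands, read 0.11, −0.092, −0.13, 0.45 and 0.12 in brain of mice 1 to 5, and −1.21, −0.30, −0.37 and −0.62 in thymus of mice 2 to 5. Its brain values lay wholly above its thymus values, with a difference of 0.71 ± 0.40 (n = 4, limma adjusted p = 0.712). Aph1a, a subunit of the gamma-secretase that makes the final cut, read 0.30, 0.11, −0.007, 0.38 and 0.13 in brain, and −0.35, 0.03, −0.089, −0.19 and −0.40 in thymus. The organs overlapped by 1 value, and the difference was 0.38 ± 0.28 (n = 5, limma adjusted p = 0.712). Lfng, a glycosyltransferase that tunes the receptor towards Delta ligands, had 2 probes with means of 0.012 ± 0.12 and −0.045 ± 0.13 in brain and −0.18 ± 0.17 and −0.26 ± 0.21 in thymus. Pofut1, which adds the fucose that Notch needs, was the probe of this list past an unadjusted p under 0.05 for the shared shift, at −0.27 ± 0.24 in brain and −0.15 ± 0.21 in thymus.

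The nuclear partners and targets of Notch lay below 0 more often than all probes in both organs. Of 25 probes, 17 (68.0%) were below 0 in brain and 20 (80.0%) in thymus, beside 46.5% and 50.1% of all probes tested. RNA processing probes, described below, had like shares of 63.51% and 78.38%. Below 0 in both organs were 13 of the 25, beside 4983 of all 19327. At an unadjusted p under 0.05 the shared shift was lower for 4 of the 25 (Hes5, Hes7, Hey2 probe 25 and Ep300) and higher for 1 (Hes1). The median of the list per mouse ran between −0.195 and 0.042 in brain and between −0.189 and 0.007 in thymus. Genes of this list also have several probes each, which are not independent. Shared shifts of whole lists were unstable. Of 28 lists, the median shared shift changed sign for 10 with the Cy5 arrays alone and for 8 with the Cy3 arrays alone. It did so for 12 with the Cy5 arrays of both organs turned and for 10 without mouse 5.

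The promoters of 2 of these targets are shown because each holds the core RBPJ motif at 2 places. The sequences are those of RefSeq on GRCm38.p6, each a window of 300 bases across the annotated start, and capitals mark TGGGAA or its reverse complement TTCCCA. Hes5 is at chr4:154960673-154960972 on the plus strand and Hey2 at chr10:30842734-30843033 on the minus strand.
Hes5: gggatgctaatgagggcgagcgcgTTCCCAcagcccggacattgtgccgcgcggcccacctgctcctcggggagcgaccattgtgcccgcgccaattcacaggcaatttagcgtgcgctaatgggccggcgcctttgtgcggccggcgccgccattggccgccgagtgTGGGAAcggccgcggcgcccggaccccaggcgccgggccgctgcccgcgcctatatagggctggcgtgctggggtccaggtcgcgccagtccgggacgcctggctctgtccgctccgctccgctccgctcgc
Hey2: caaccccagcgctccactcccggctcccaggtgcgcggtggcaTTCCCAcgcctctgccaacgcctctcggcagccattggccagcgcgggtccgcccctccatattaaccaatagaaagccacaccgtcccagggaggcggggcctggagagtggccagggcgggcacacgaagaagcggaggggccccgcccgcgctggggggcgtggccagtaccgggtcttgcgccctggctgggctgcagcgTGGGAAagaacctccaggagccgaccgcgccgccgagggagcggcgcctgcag
The motif on either strand was found for 6 of the 12 genes of the nuclear list that had a promoter in the table (50%), beside 28.31% of 27025 genes. A gene with several promoters counts if any of them matches. Per promoter it was 7 of 18 (38.89%), beside 25.56% of 32851. A match is a run of letters and not a measured binding site.

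Hes5, a repressor that Notch induces in neural stem cells, read 0.0015, −0.12, −0.33, −0.27 and −0.50 in brain and −0.063, −0.40, −0.27, −0.50 and −0.73 in thymus. Of its 10 values 9 were below 0, mouse 5 was the lowest in both organs and mouse 1 the nearest to 0 in both. The mean was −0.24 ± 0.19 in brain and −0.39 ± 0.25 in thymus (SD, n = 5 each), with a shared shift of −0.32 ± 0.21 (limma adjusted p = 0.516). Hey2, a repressor with roles in heart and vessels, gave −0.16, −0.57, −0.023, −0.32 and −0.051 in brain and −0.78, −0.31, 0.26, 0.0025 and −0.44 in thymus with probe 25. Only its brain values held 1 sign, and its probe 20310 ran between −1.78 and 0.52 in thymus. Hes7, an oscillating repressor of somite formation, averaged −0.15 ± 0.13 in brain and −0.17 ± 0.26 in thymus (SD, n = 5 each). Ep300, an acetyltransferase recruited by the Notch complex, averaged −0.19 ± 0.17 in brain and −0.51 ± 0.40 in thymus (SD, n = 5 each).

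Hes1, the target that Notch uses in both neural and T cell progenitors, went the other way. It read 2.04, 0.059, 0.063, 0.47 and 0.22 in brain and 0.16, 0.57, −0.068, 0.11 and 0.90 in thymus, with a shared shift of 0.45 ± 0.41 (limma adjusted p = 0.516). The brain mean of 0.57 ± 0.84 rested on mouse 1, which stood far above the other 4. Gata3, a T cell factor downstream of Notch, read 0.33, 0.20, 0.021, 0.16 and 0.40 in brain and −0.73, 0.067, −0.36, −0.075 and −0.12 in thymus. The organs overlapped by 1 value, and the difference was 0.47 ± 0.36 (n = 5, limma adjusted p = 0.712). Hes6, an antagonist of Hes1, had a difference of 0.35 ± 0.30 (n = 5, limma adjusted p = 0.712).

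Myc, a growth regulator and Notch target in immature T cells, was the one probe of the list whose ratio was lower in brain at an unadjusted p under 0.05. It read −0.68, −0.73, −0.17, −0.39 and −0.44 in brain of mice 1 to 5, and 1.18, 1.98, −0.012 and 0.97 in thymus of mice 1, 3, 4 and 5. Every brain value lay below every thymus value. The mean was −0.48 ± 0.23 in brain (SD, n = 5) and 1.03 ± 0.82 in thymus (SD, n = 4), a difference of −1.45 ± 0.77 over the 4 mice with both (limma adjusted p = 0.712).

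**Figure D2:**
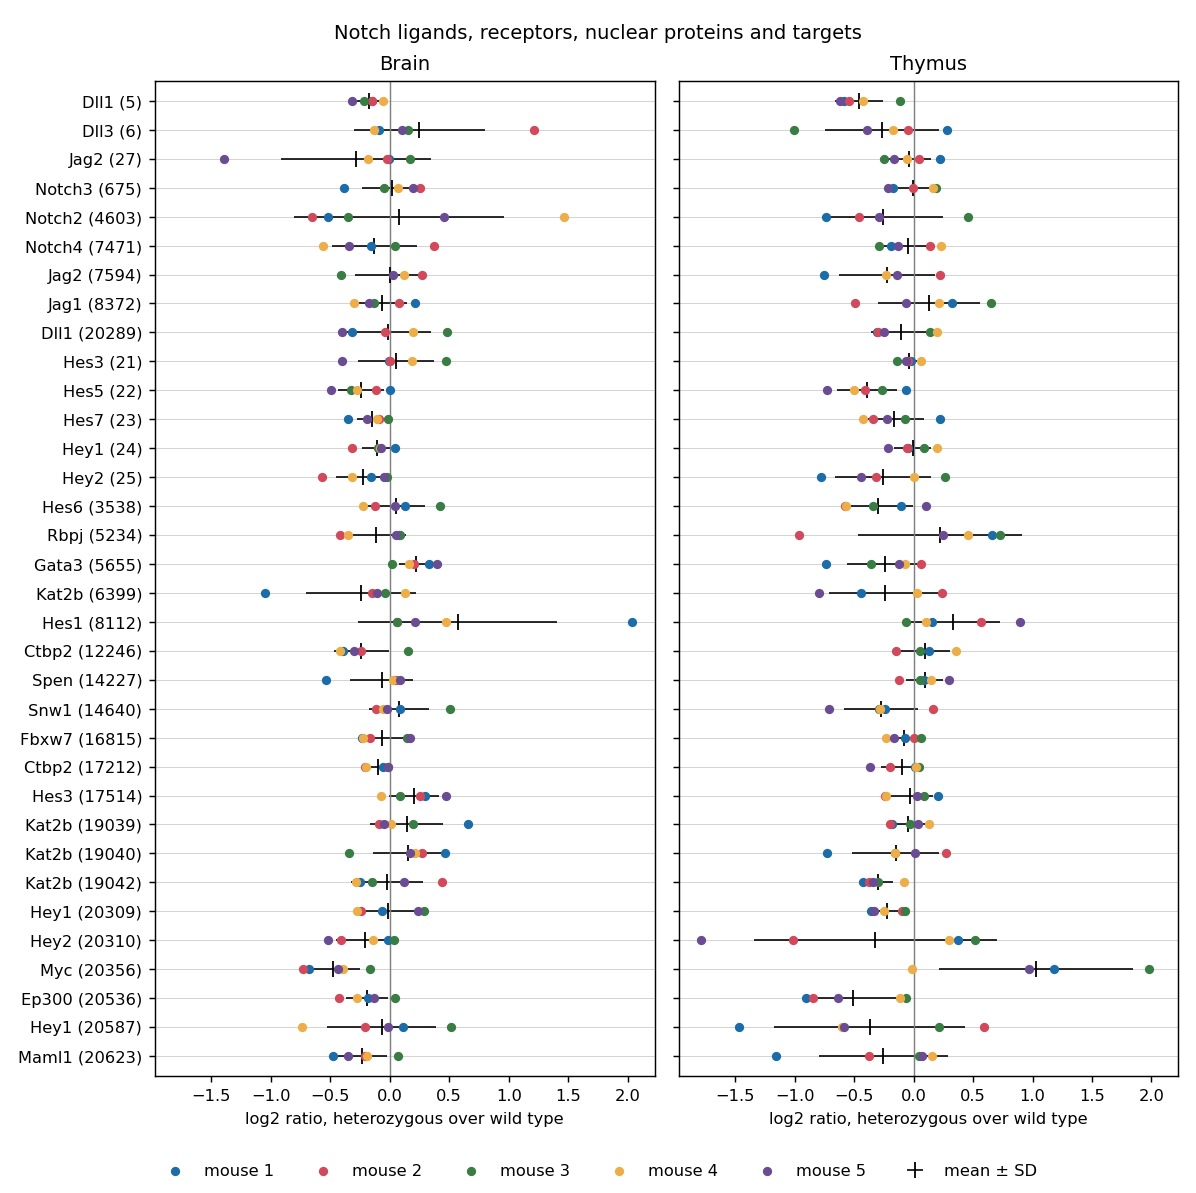
Log2 ratio (horizontal axis) of the 34 probes of Notch ligands, receptors, nuclear partners and targets in brain (left panel) and thymus (right panel), with the probe number in brackets. Points are mice and bars the mean ± SD. Dll1 probe 5 is below 0 in every mouse of both organs, Hes5 is near or below 0 in every mouse, and Myc is below 0 in brain and, but for mouse 4, near or above 1 in thymus.

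Atp6v0a1 and Dynlt1b led the genes with the higher ratio in brain, and their brain ratios were high in every mouse. Named here are the 10 probes of smallest p in each direction with values in at least 4 mice. Their p-values, and any small spread of their differences within mice, thus describe how they were chosen. Dynlt1b, a light chain of the dynein motor, read 1.05, 0.81, 1.45, 1.50 and 1.88 in brain and −0.34, −0.19, 0.10, 0.32 and 0.49 in thymus with probe 3029. All brain values exceeded all thymus values, and the difference within a mouse spread less than either organ, at 1.26 ± 0.17 against an SD of 0.42 in brain and 0.35 in thymus (n = 5, limma adjusted p = 0.32). A further Dynlt1b probe, 12513, averaged 0.01 in brain and −0.442 in thymus, so the high brain reading was found with 1 of its probes.

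Atp6v0a1, a membrane subunit of the vacuolar proton pump that acidifies vesicles and is abundant in neurons, had 2 probes with the same pattern. Probe 17392 read 1.20, 0.81, 1.31, 1.54 and 1.80 in brain and 0.24, −0.087, −0.14, 0.57 and 0.59 in thymus. Probe 20462 read 1.35, 0.998, 1.55, 1.76 and 2.08 in brain and −0.31, 0.053, 0.021, 0.89 and 1.03 in thymus. The organs did not overlap with probe 17392, and with probe 20462 the lowest brain value, 0.998 in mouse 2, fell below the highest thymus value, 1.03 in mouse 5. The differences were 1.10 ± 0.23 (limma adjusted p = 0.469) and 1.21 ± 0.36 (limma adjusted p = 0.501), with n = 5 each. Both Atp6v0a1 probes and Dynlt1b probe 3029 ranked the 5 brains in 1 order, with mouse 2 lowest and mouse 5 highest, and mice 4 and 5 were also the highest in thymus for all 3. In spleen of the same strain Atp6v0a1 averaged 0.94 ± 0.34 and 0.79 ± 0.31 with these probes (SD, n = 5 each, limma adjusted p = 0.796 for both), and in liver −0.12 ± 0.20 (n = 5) and 0.11 ± 0.71 (n = 4), so high ratios were also read outside brain. If the ratios of the Cy5 arrays of brain were in fact unturned, these 3 differences would be −0.183, −0.252 and 0.184.

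A second group differed through low thymus ratios and brain ratios near 0. Bcl11b, a transcription factor required for T cell commitment and also made in cortical neurons, read 0.13, 0.16, 0.31, 0.013 and 0.53 in brain and −0.89, −1.04, −1.02, −0.81 and −0.92 in thymus with probe 6459. Every mouse was above 0 in brain and below −0.8 in thymus, and the difference was 1.17 ± 0.25 (n = 5, limma adjusted p = 0.469). Bcl11b probe 33 showed no such contrast, with −0.21 ± 0.20 in brain and −0.16 ± 0.10 in thymus. Higd1b, a small mitochondrial membrane protein of the hypoxia-inducible domain family, averaged −0.05 ± 0.27 in brain and −0.66 ± 0.26 in thymus, with a difference of 0.61 ± 0.14 (n = 5, limma adjusted p = 0.712). Its brain mean included mouse 1 at 0.42, while the other 4 lay between −0.22 and −0.15. Trip12, a HECT-type ubiquitin ligase, averaged 0.058 ± 0.17 in brain and −0.56 ± 0.094 in thymus with probe 4792 (n = 5, limma adjusted p = 0.712). The organs did not overlap, whereas its probe 17703, measured in both organs of 3 mice, ran the other way with a difference of −0.99 ± 1.25. Bcl11b, Higd1b and Trip12 are genes that the study itself singled out in these thymus arrays, so their thymus values are not independent evidence.

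Ubash3a and Egr1 were above 0 in every brain and below 0 in every thymus. Ubash3a, a suppressor of T cell receptor signalling, read 0.35, 0.26, 0.17, 0.26 and 0.45 in brain and −0.52, −0.12, −0.39, −0.47 and −0.40 in thymus, a difference of 0.68 ± 0.21 (n = 5, limma adjusted p = 0.712). Egr1, an immediate early transcription factor induced by neuronal activity and by T cell receptor signals, read 0.19, 0.14, 0.15, 0.092 and 0.11 in brain and −0.37, −0.51, −0.61, −0.33 and −0.46 in thymus. Its spread was small in both organs, and the difference was 0.59 ± 0.12 (n = 5, limma adjusted p = 0.712). Rbm3, an RNA-binding protein induced by cold, averaged 0.36 ± 0.29 in brain and −0.25 ± 0.18 in thymus (n = 5 each), and Flywch2 averaged 0.95 ± 0.79 in brain and −0.55 ± 0.46 in thymus (n = 4 each). Both had no overlap between the organs in the mice measured.

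In the opposite direction all 10 genes had a mean below 0 in brain and above 0 in thymus, and 9 of them lacked a value in 1 mouse, Cux1 in both organs and the others in 1 organ. Ntrk2, the BDNF receptor TrkB, was the exception with all 10 values. It read −0.56, −0.69, −0.034, −0.75 and −1.06 in brain and 0.053, 0.79, 0.53, 0.70 and 0.73 in thymus with probe 16163. The organs fell on opposite sides of 0, with a difference of −1.18 ± 0.55 (n = 5, limma adjusted p = 0.712), while Ntrk2 probe 18534 had a difference of −0.045. Arl2, a small GTPase of tubulin folding, averaged −0.59 ± 0.46 in brain (n = 5) and 1.09 ± 0.65 in thymus (n = 4) with probe 12429, and its probe 11606 had a difference of −0.085. Cux1, a homeodomain factor of upper cortical layers, read −0.70, −0.088, −0.55 and −0.49 in brain and 0.86, 1.18, 0.33 and 1.27 in thymus of mice 2 to 5 with probe 19515. These values did not overlap, and the difference was −1.37 ± 0.38 (n = 4, limma adjusted p = 0.712), but 2 further Cux1 probes, 1224 and 15821, had differences of −0.054 and −0.001. For each of these 3 genes the contrast was thus seen with 1 probe only.

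The remaining genes of that direction had differences between −1.41 and −0.80. Tle4, a corepressor of the Groucho family that Hes proteins recruit, averaged −0.42 ± 0.41 in brain (n = 5) and 0.49 ± 0.48 in thymus (n = 4) with probe 20750, while its probe 20749 averaged −0.12 in brain and −0.18 in thymus, a difference of 0.038. Pabpc2, a poly(A)-binding protein, read −0.49, −0.68, −0.39 and −0.55 in brain of mice 2 to 5 and −0.41, 0.36, 0.40, 0.29 and 0.048 in thymus of mice 1 to 5. The overlap came from mouse 1 in thymus, and the difference over the 4 mice with both was −0.80 ± 0.21 (limma adjusted p = 0.712). Aifm1, a mitochondrial flavoprotein released in cell death, averaged −0.58 ± 0.82 in brain, where mouse 5 stood at −2.03, and 0.73 ± 0.38 in thymus. Iffo1, Nradd, Cog1 and Cdh7 had mean differences of −0.83 ± 0.14, −1.13 ± 0.39, −0.93 ± 0.29 and −0.80 ± 0.20 over 4 mice each.

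**Figure D3:**
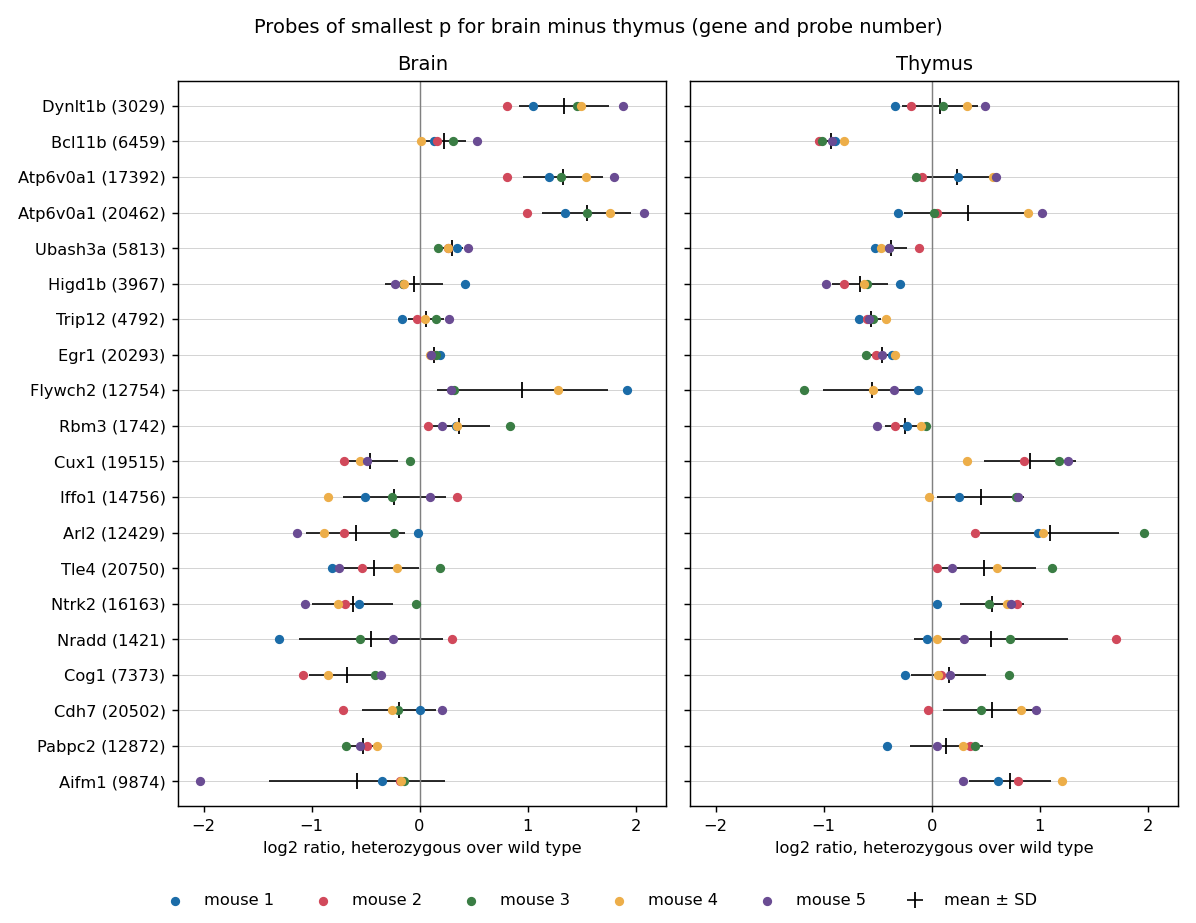
Log2 ratio (horizontal axis) of the 20 probes of smallest p for brain minus thymus, in brain (left panel) and thymus (right panel), points as mice and bars as mean ± SD. The top 10 rows had the higher ratio in brain and the lower 10 rows the lower ratio. Dynlt1b and Atp6v0a1 stand out by brain values of 0.81 and more, Bcl11b by thymus values of −0.81 and less.

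Gene groups were described by the number of their probes past an unadjusted p under 0.05, read against the 4.04% of all probes higher and 2.93% lower in brain, and by medians beside those of all probes. T cell genes had low thymus ratios, and the list holds Bcl11b, which the study named on these thymus arrays. Of 50 probes, 37 (74%) were below 0 in thymus and 24 (48%) in brain, beside 50.1% and 46.5% of all probes. The thymus share was not particular to T cell genes. It was 78.38% for RNA processing, 76.19% for cytosolic ribosomal protein and 75% for respiratory chain probes. The median was 0.0125 in brain and −0.144 in thymus, and the median per mouse ran between −0.082 and 0.048 in brain and between −0.205 and −0.062 in thymus. The difference was higher in brain for 10 probes and lower for 2 (a probe each of Cd247 and Arpp21). Arpp21, a phosphoprotein of immature thymocytes and of striatal neurons, read 0.14, −0.15, 0.15, −0.021 and 0.091 in brain and −0.78, −0.39, −0.37, −0.55 and −0.61 in thymus, with no overlap with probe 18900 (difference 0.58 ± 0.25, limma adjusted p = 0.712). Its probe 18757 ran the other way, at −0.10 ± 0.26 in brain and 0.46 ± 0.32 in thymus, so the probes of Arpp21 disagreed. Satb1, a chromatin organiser of thymocytes, averaged −0.12 ± 0.14 in brain and −0.41 ± 0.10 in thymus with probe 6649, and Myb, a progenitor transcription factor, 0.056 ± 0.16 in brain and −0.42 ± 0.17 in thymus (SD, n = 5 each). The difference of Myb was 0.47 ± 0.14 (limma adjusted p = 0.712). Genes of a list named from here on beyond its 4 of smallest p were chosen after their values were seen. Ikzf1, the lymphoid factor Ikaros, read 0.60, 0.086, 0.31, 0.036 and 1.40 in brain and −0.59, −0.20, −0.25, −0.26 and −0.56 in thymus, and Ptprc, the leukocyte phosphatase CD45, averaged 0.13 ± 0.15 in brain and −0.34 ± 0.12 in thymus with probe 11459. Neither overlapped between the organs. Satb1 probe 5354 also had no overlap, at 0.41 ± 0.43 in brain (n = 4) and −0.63 ± 0.19 in thymus (n = 5). Thy1 and Cd2, surface antigens of T cells, had 2 probes each and no unadjusted p under 0.05 for the difference with any of them.

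The 9 genes listed here from those that the study named for thymus, a subset of its genes, gave the widest contrast of the lists described, and since they were picked on these thymus arrays this is not independent evidence. Of their 19 probes, 11 were higher in brain at an unadjusted p under 0.05 and 0 lower, and 13 were lower in the shared shift. The median of the list was −0.085 in brain and −0.491 in thymus, and it ran between −0.281 and 0.127 over the 5 brains and between −0.793 and −0.347 over the 5 thymi, with no overlap. Srsf5, a splicing factor, had 2 probes at 0.015 ± 0.17 and −0.13 ± 0.16 in brain and −0.54 ± 0.28 and −0.75 ± 0.25 in thymus. Vldlr, the very low density lipoprotein and reelin receptor, read −0.035, −0.30, 0.15, 0.18 and 0.22 in brain and −0.86, −0.034, −0.38, −0.48 and −0.69 in thymus with probe 20766. Its brain and thymus values overlapped through mouse 2, whose brain was the lowest and whose thymus was the highest of its organ. Ywhab, a 14-3-3 protein, was split, since probe 5597 averaged −0.15 ± 0.24 in brain and −0.48 ± 0.19 in thymus, whereas probes 4790 and 15752 averaged 0.024 ± 0.085 and −0.051 ± 0.21 in brain and 0.10 ± 0.24 and 0.051 ± 0.50 in thymus.

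RNA processing and ubiquitin ligase genes also had the higher ratio in brain more often than all probes. Of 74 RNA processing probes, 19 were higher in brain and 0 lower at an unadjusted p under 0.05, the median was −0.040 in brain and −0.174 in thymus, and the shared shift was lower for 21 and higher for 1. Ddx5, an RNA helicase, read −0.22, −0.28, 0.10, −0.25 and −0.15 in brain and −0.85, −0.27, −0.72, −0.80 and −1.24 in thymus with probe 19620, and only mouse 2 had like values in its organs. Ddx3x, a helicase of translation initiation encoded on the X chromosome, averaged 0.087 ± 0.18 in brain and −0.62 ± 0.32 in thymus with probe 3050, without overlap, and Hnrnpd, which binds AU-rich mRNA, 0.099 ± 0.25 in brain and −0.41 ± 0.055 in thymus (SD, n = 5 each). Pabpn1, the nuclear poly(A)-binding protein, averaged −0.22 ± 0.24 in brain and −0.48 ± 0.16 in thymus, a shared shift of −0.35 ± 0.067 (n = 5, limma adjusted p = 0.474). Of 41 ubiquitin ligase probes, 9 were higher in brain and 1 lower (Btrc probe 7048), with a median of 0.0245 in brain and −0.122 in thymus. Cbl, which marks activated receptor kinases for degradation, read 0.20, 0.044, 0.11, 0.49 and 0.053 in brain and −0.33, −0.41, −0.27, −0.19 and −0.50 in thymus, with no overlap (difference 0.52 ± 0.11, n = 5, limma adjusted p = 0.712). Birc2, an inhibitor of apoptosis with ligase activity, lay between 0.10 and 0.14 in the 5 brains and between −0.86 and −0.13 in the 5 thymi. The RNA processing list shares Srsf5, Ddx6 and Akap8, and the ubiquitin ligase list Trip12, with the genes that the study named.

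Neuronal genes showed the opposite pattern, with low ratios in brain. Of 60 probes, 52 (86.67%) were below 0 in brain and 28 (46.67%) in thymus, beside 46.5% and 50.1% of all probes. Brain medians per mouse ran between −0.232 and −0.0145, all below 0, and thymus medians between −0.073 and 0.067. The −0.0145 was that of mouse 3, whose brain median over all probes was −0.014, so its neuronal median did not stand apart. The difference was lower in brain for 10 probes and higher for 0 at an unadjusted p under 0.05. Ank2, an ankyrin of axons, read −0.38, −0.45, −0.37, −0.34 and −0.43 in brain and −0.11, −0.073, 0.20, −0.10 and −0.14 in thymus with probe 17314, with no overlap (difference −0.35 ± 0.14, limma adjusted p = 0.712). Ank2 probe 10061 ran the other way, with −0.24 ± 0.14 in brain, −0.35 ± 0.72 in thymus and a difference of 0.12. Kif5a, an axonal kinesin, read −0.43, −0.49, −0.19, −0.38 and −0.23 in brain and −0.007, 0.21, −0.037, 0.0075 and 0.0015 in thymus with probe 19291. Gad1, which makes the transmitter GABA, read −0.31, −0.16, −0.20, −0.46 and −0.58 in brain and 0.30, 0.13, −0.0095, 0.10 and 0.50 in thymus with probe 18583, while its probe 10220 averaged 0.043 ± 0.31 in brain and 0.14 ± 0.25 in thymus. Kif5a probe 19291 and Gad1 probe 18583 were below 0 in every brain and did not overlap, as was the case for Penk, the enkephalin precursor, at −0.21 ± 0.082 in brain and 0.34 ± 0.37 in thymus. Camk2a, the abundant kinase of excitatory synapses, averaged −0.68 ± 0.60 in brain (n = 4), where mouse 2 stood at −1.56, and 0.10 ± 0.13 in thymus (n = 5) with probe 18100. Cck, Eno2, Vsnl1 and a further Kif5a probe were the others lower in brain. Nefm, the medium neurofilament chain, averaged −0.0046 ± 0.30 in brain and 0.52 ± 0.38 in thymus, so its difference of −0.53 ± 0.18 (limma adjusted p = 0.712) came from high thymus ratios. Camk2b, a synaptic kinase, and Uchl1, a neuronal deubiquitinase, averaged −0.30 ± 0.21 and −0.13 ± 0.10 in brain and −0.23 ± 0.19 and −0.44 ± 0.27 in thymus, and neither had an unadjusted p under 0.05 for the difference.

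The organ contrast of these lists was measured in each dye orientation. With the Cy5 arrays alone the median difference was 0.15 for T cell genes, 0.12 for RNA processing genes, 0.18 for ubiquitin ligase genes and −0.16 for neuronal genes, and with the Cy3 arrays alone it was 0.19, 0.18, 0.21 and −0.13. Each of these lists thus kept its sign in both sets of arrays. They were singled out for their contrast on the average of these same arrays, so the kept sign is no independent support. Of 28 lists, the median difference changed sign for 5 with the Cy5 arrays alone and for 4 with the Cy3 arrays alone. If the Cy5 arrays of both organs were in fact unturned, the medians would be 0.012, 0.022, 0.064 and 0.0035, beside 0.0236 over all probes in the arrays as read. The medians of T cell, RNA processing and neuronal genes would then lie near 0, and that of neuronal genes would have the other sign.

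Other cells of the brain were less uniform. Of 23 astrocyte probes, 17 (73.91%) were below 0 in brain and 12 (52.17%) in thymus, beside 46.5% and 50.1% of all probes. The thymus share was thus near that of all probes, and 1 probe was lower in brain at an unadjusted p under 0.05. Ndrg2, an astrocyte gene, read −0.093, −0.31, −0.25, −0.24 and −0.27 in brain and 0.20, −0.25, 0.32, 0.19 and 0.17 in thymus, with mouse 2 the only thymus below 0. Of 16 oligodendrocyte probes, 10 (62.5%) were below 0 in brain and 5 (31.25%) in thymus, and 2 were lower in brain (Mobp and Trf). Mobp, a myelin protein, averaged −0.094 ± 0.20 in brain (n = 5) and 0.60 ± 0.14 in thymus (n = 4), a difference of −0.73 ± 0.18 (limma adjusted p = 0.712). Its thymus values, 0.70, 0.53, 0.44 and 0.73 in mice 2 to 5, lay wholly above its brain values, and Mbp, the major myelin protein, averaged −0.089 ± 0.36 in brain and 0.43 ± 0.64 in thymus (n = 4 each).

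Markers of cells that either organ can hold from blood or adjoining tissue were read as whole lists, and their part in the results above was not tested. Red cell genes had a median of −0.318 in brain and −0.029 in thymus over 11 probes, the per-mouse median running between −0.475 and −0.195 in brain and between −0.498 and 0.583 in thymus, and 0 of them passed an unadjusted p under 0.05 for the difference. Adipocyte genes had a median of 0.034 in brain and −0.230 in thymus over 10 probes. Of these 10, 9 had the higher ratio in brain, beside 10555 of all 19327. For the difference 1 passed (Lpl, lipoprotein lipase, at 0.035 ± 0.19 in brain and −0.40 ± 0.30 in thymus). Thymic epithelium and stroma genes had medians of 0.025 in brain and −0.057 in thymus over 19 probes, and 3 were higher in brain (Il7, Prss16 and Psmb11) and 0 lower. Il7, the cytokine that sustains thymocytes, averaged 0.071 ± 0.26 in brain and −0.35 ± 0.14 in thymus, and Prss16, a protease of cortical thymic epithelium, 0.36 ± 0.51 in brain and −0.36 ± 0.33 in thymus (n = 5 each). Of 11 macrophage and microglia probes, 14 endothelial probes and 10 B cell probes, 0 passed for the difference in either direction. Their medians were −0.0097, −0.017 and −0.0059 in brain, beside 0.005, 0.063 and 0.037 in thymus.

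Genes of acute signalling leaned to brain as well. Of 22 immediate early probes, 17 had the higher ratio in brain, beside 10555 of all 19327. At an unadjusted p under 0.05, 4 of the 22 (Egr1, Dusp1, Nr4a2 and Btg2) were higher and 0 lower. The median per mouse lay between 0.041 and 0.138 in the 5 brains and between −0.200 and −0.014 in the 5 thymi, with no overlap. Dusp1, a phosphatase induced by stress and glucocorticoids, read 0.59, 1.07, 0.20, 1.81 and 0.041 in brain and 0.90, −2.22, −1.82, −0.039 and −1.28 in thymus, so mouse 1 went against the other 4 in thymus. Nr4a2, a nuclear receptor, averaged −0.078 ± 0.13 in brain and −0.38 ± 0.20 in thymus. Of 13 glucocorticoid response probes, 1 was higher in brain (Dusp1 again) and 0 lower. Of 33 chaperone probes 2 were higher (Canx and Pdia4) and 0 lower, and of 22 circadian clock probes 1 was higher (Csnk1e) and 1 lower (Tef).

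The large housekeeping families showed small organ offsets with few single genes past the threshold. Cytosolic ribosomal protein genes had the higher ratio in brain for 61 of 84 probes and respiratory chain genes for 67 of 92, beside 10555 of all 19327. Their median differences were 0.101 and 0.106, beside 0.0236 over all probes. At an unadjusted p under 0.05 only 2 ribosomal probes were higher (Rps9 and Rps14) and 1 lower (Rps21), and 3 respiratory chain probes were higher (Cox4i1, Ndufb8 and Ndufc2) and 1 lower (Cox6a1), shares under the 4.04% and 2.93% of all probes. Ribosomal medians per mouse spread from −0.171 in brain of mouse 2 to 0.174 in brain of mouse 3, wider than the gap between the organ medians of 0.014 in brain and −0.089 in thymus. Proteasome genes (50 probes) had 3 higher (Psmb11, Psmd6 and Psme4) and 0 lower, and vacuolar proton pump genes (22 probes) 3 higher and 0 lower, of which 2 were the Atp6v0a1 probes and 1 was Atp6v1c1, a cytosolic pump subunit at 0.095 ± 0.16 in brain and −0.30 ± 0.28 in thymus. Dynein and dynactin genes (24 probes) had 1 higher, Dynlt1b probe 3029, and 2 lower (Dctn4 and Dynll2 probe 11410). No other dynein probe, and among the other pump probes only Atp6v1c1, was higher in brain at that threshold. Cell cycle genes (38 probes) had 1 higher (Rrm1) and 1 lower (Cdc6), and interferon and MHC genes (16 probes) 0 in either direction.

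Genes that start within 5 Mb of Dll1 were listed as neighbours of the targeted allele. Of 31 probes for 21 genes, 3 were higher in brain (Tbp and 2 probes of Tcp1) and 1 lower (Acat3 probe 11976) at an unadjusted p under 0.05, and for the shared shift 3 were higher and 2 lower, of which 1 was Dll1 probe 5. Tbp, the TATA-binding protein, read 0.31, 0.34, 0.78, 0.40 and 0.33 in brain and −0.12, 0.20, −0.15, −0.15 and 0.27 in thymus. All brain values were above all thymus values, and the difference was 0.42 ± 0.35 (n = 5, limma adjusted p = 0.712). Tcp1, a chaperonin subunit, averaged 0.27 ± 0.11 in brain and −0.19 ± 0.33 in thymus with probe 1574, again without overlap of the organs.

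**Figure D4:**
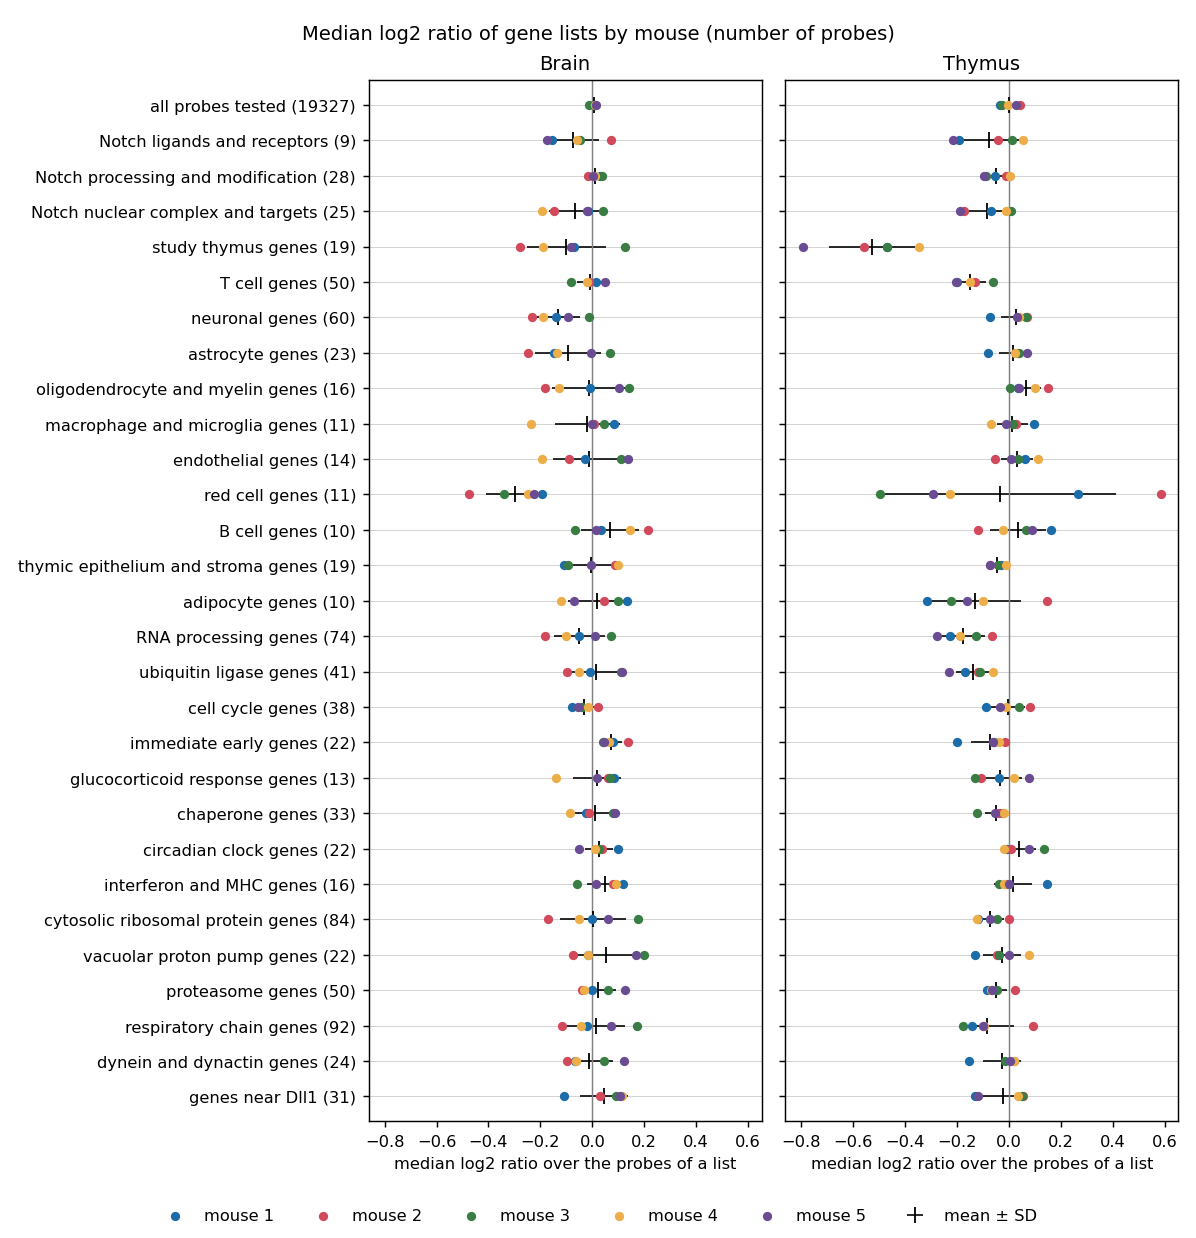
Median log2 ratio over the probes of each gene list (horizontal axis) in brain (left panel) and thymus (right panel), points as mice and bars as mean ± SD over mice, with the number of probes in brackets. The top row holds all 19327 probes tested. Thymus medians are lowest for the genes named by the study. They are below 0 in all mice for T cell genes, but also for RNA processing, ubiquitin ligase and immediate early genes. The same holds for chaperone, thymic epithelium and stroma, and cytosolic ribosomal protein genes. Brain medians are below 0 in all mice for neuronal and red cell genes. The neuronal median of brain mouse 3, −0.0145, is near the −0.014 of all probes in that brain.

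Probes shifted the same way in both organs were more often lower than higher when both dye orientations and all 5 mice were used, but this balance was not stable. At an unadjusted p under 0.05, 1557 probes were higher and 1364 lower with the Cy3 arrays alone, 1338 higher and 1203 lower without mouse 3, and 2127 higher and 1466 lower if the Cy5 arrays of both organs were unturned. The probes with 1 sign in both organs turned likewise, with 455 higher and 150 lower, 446 and 322, and 747 and 99, and they were 90 and 58 if the Cy5 arrays of brain alone were unturned. The 10 of smallest p on the lower side, among those with 1 sign in every value, are given first. Apc, the scaffold that destines beta-catenin for degradation, read −0.24, −0.39, −0.12, −0.30 and −0.22 in brain and −0.53, −0.41, −0.56, −0.66 and −0.91 in thymus with probe 20452. Thymus was lower than brain in each mouse and the organs did not overlap, with a shared shift of −0.43 ± 0.091 (n = 5, limma adjusted p = 0.474). Ddx6, a helicase of mRNA decay and P-bodies, read −0.24, −0.12, −0.19, −0.19 and −0.31 in brain and −0.90, −0.56, −0.66, −0.54 and −1.02 in thymus with probe 852. It too had no overlap, with a shared shift of −0.47 ± 0.14 (limma adjusted p = 0.474) and a difference of 0.52 ± 0.15 (limma adjusted p = 0.712). Apc and Ddx6 are among the genes that the study named in thymus, and their thymus part is not independent of it. A further Apc probe, 20248, and 3 further Ddx6 probes had shared shifts between −0.50 and −0.18, and of these only Ddx6 probe 20052 had an unadjusted p under 0.05.

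Gatad2b and Nfix had like ratios in both organs. Gatad2b, a subunit of the NuRD chromatin complex, read −0.28, −0.44, −0.33, −0.35 and −0.50 in brain and −0.50, −0.25, −0.36, −0.60 and −0.23 in thymus. The means of −0.38 ± 0.089 in brain and −0.39 ± 0.16 in thymus differed by 0.0076 ± 0.24, and the shared shift was −0.38 ± 0.055 (n = 5, limma adjusted p = 0.474). Nfix, a transcription factor of neural stem cells and blood progenitors, averaged −0.36 ± 0.10 in brain and −0.29 ± 0.11 in thymus with probe 19846, while its 3 other probes had shared shifts of −0.111, −0.083 and −0.149. Ezh2, the methyltransferase of Polycomb complex PRC2, read −0.66, −0.35, −0.034, −0.49 and −0.14 in brain of mice 1 to 5 and −0.73, −0.72, −0.53 and −1.11 in thymus of mice 2 to 5. Its thymus values were lower than its brain values in the 4 mice with both, but the organs overlapped. Celf2, an RNA-binding protein of brain and T cells, averaged −0.28 ± 0.17 in brain and −0.36 ± 0.079 in thymus, and a second probe, 4427, had a shared shift of −0.321.

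Wasf2 and Psmg1 completed the lower side with wider spread in brain. Wasf2, an actin regulator of the WAVE complex, averaged −0.39 ± 0.37 in brain, where mouse 1 stood at −1.03, and −0.52 ± 0.21 in thymus. Psmg1, a proteasome assembly chaperone, averaged −0.33 ± 0.21 in brain and −0.41 ± 0.15 in thymus (SD, n = 5 each). Neither had a difference between the organs beyond its spread, at 0.14 ± 0.47 and 0.081 ± 0.26. Wasf2 probe 19258 averaged 0.039 in brain and −0.37 in thymus, with a shared shift of −0.17.

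Pcf11 and Srrm2 are shown with their promoters because these hold the RBPJ core motif and both genes work on nascent RNA. The RefSeq sequences on GRCm38.p6 lie at chr7:92669863-92670162 on the minus strand for Pcf11 and at chr17:23802937-23803236 on the plus strand for Srrm2, with TGGGAA or TTCCCA in capitals.
Pcf11: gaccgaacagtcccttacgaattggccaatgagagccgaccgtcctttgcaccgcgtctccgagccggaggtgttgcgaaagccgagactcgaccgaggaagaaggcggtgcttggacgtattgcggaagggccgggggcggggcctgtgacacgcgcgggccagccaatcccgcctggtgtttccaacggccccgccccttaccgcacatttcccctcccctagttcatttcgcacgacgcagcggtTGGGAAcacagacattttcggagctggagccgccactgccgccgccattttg
Srrm2: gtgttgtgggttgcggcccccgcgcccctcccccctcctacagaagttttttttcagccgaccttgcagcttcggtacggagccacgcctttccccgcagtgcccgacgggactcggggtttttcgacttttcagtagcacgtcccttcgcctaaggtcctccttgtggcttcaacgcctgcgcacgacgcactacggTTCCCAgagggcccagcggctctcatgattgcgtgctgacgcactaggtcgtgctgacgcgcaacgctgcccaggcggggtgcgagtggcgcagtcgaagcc
Among the 10 genes of the lower side, 8 had a promoter in the table and 3 of these held the motif (37.5%), and on the higher side it was 3 of 10 (30%), beside 28.31% of all 27025 genes. Both shares were thus near that of all promoters. Apc and Ddx6 were without an entry.

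Pcf11, a factor of transcript cleavage and termination, read −0.13, −0.34, −0.085, −0.12 and −0.34 in brain and −0.82, −0.19, −0.53, −0.66 and −0.50 in thymus with probe 9598. The organs overlapped only in mouse 2, whose brain was among the lowest and whose thymus was the highest, and the shared shift was −0.37 ± 0.084 (n = 5, limma adjusted p = 0.474). Its probe 12559 had a shared shift of 0.061. Srrm2, a large scaffold of nuclear speckles, read −0.66, −0.63, −0.62, −0.091 and −0.96 in brain and −0.17, −0.26, −0.38, −0.39 and −0.52 in thymus with probe 19817. It was lower in brain than in thymus in all mice but mouse 4, with a shared shift of −0.47 ± 0.18 (n = 5, limma adjusted p = 0.474), and its probes 19725, 15620 and 15204 had shared shifts of −0.311, −0.168 and −0.563.

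The 10 genes of the higher side had smaller shared shifts, between 0.19 and 0.35, and larger p-values, between 0.00734 and 0.016. H2-DMb1, which helps to load peptides on MHC class II, read 0.35, 0.041, 0.31, 0.26 and 0.26 in brain and 0.15, 0.14, 0.089, 0.072 and 0.31 in thymus. The organs overlapped, the shared shift was 0.20 ± 0.075 (n = 5, limma adjusted p = 0.516), and its probe 251 had −0.316. Slc26a1, a sulfate transporter, averaged 0.33 ± 0.26 in brain and 0.38 ± 0.52 in thymus, where mouse 5 at 1.30 set the mean. Hamp, the iron hormone hepcidin of liver, averaged 0.29 ± 0.29 in brain (n = 5) and 0.24 ± 0.14 in thymus (n = 4), and Nqo2, a quinone reductase, 0.23 ± 0.18 in brain and 0.29 ± 0.16 in thymus (n = 5 each). Nup188, Scgn, Birc5, Gar1, Arhgap22 and Sik2 had shared shifts between 0.19 and 0.29, with brain and thymus values that overlapped in each. Further probes of Scgn (10538), Sik2 (13188) and Birc5 (20259) had shared shifts of 0.067, 0.035 and −0.074, so that of Birc5 had the other sign.

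**Figure D5:**
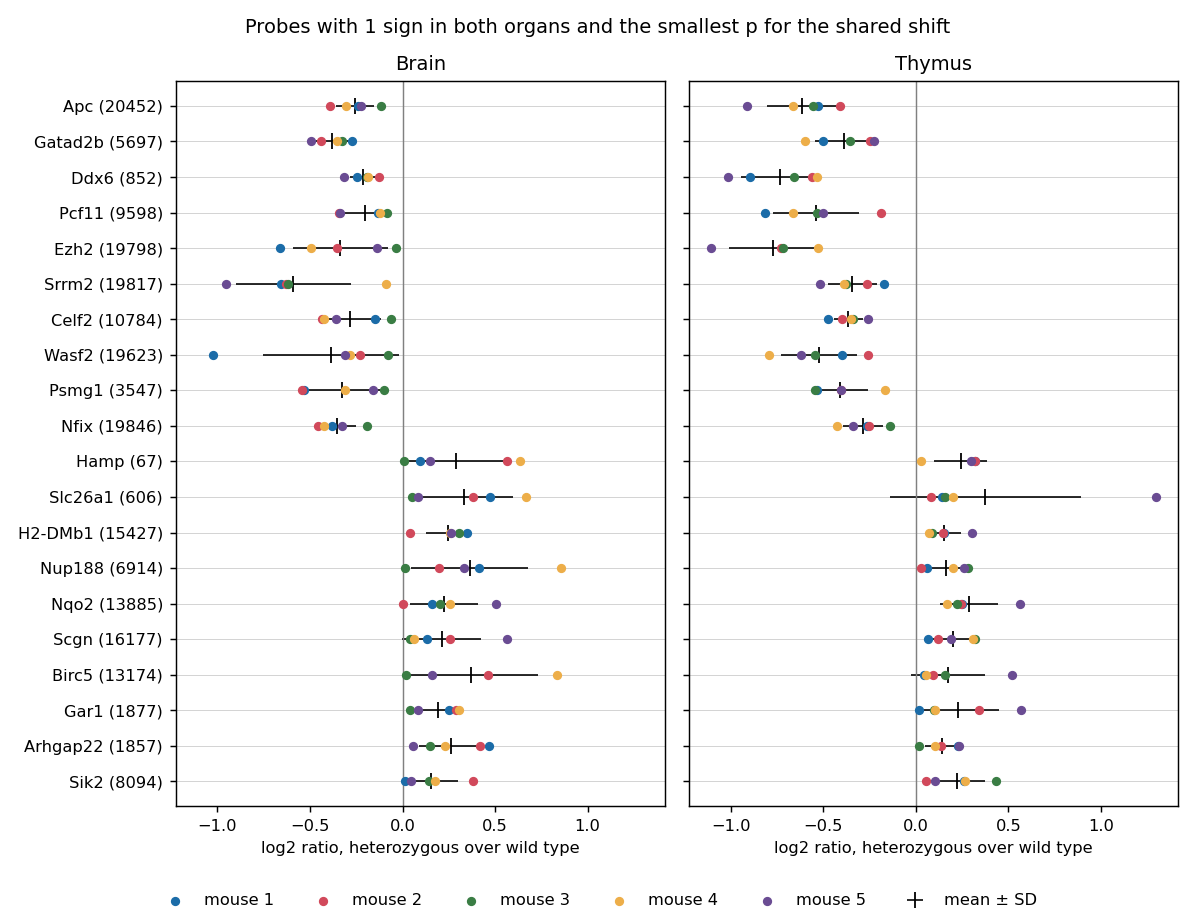
Log2 ratio (horizontal axis) of the 20 probes of smallest p for the shared shift among those with 1 sign in every value, in brain (left panel) and thymus (right panel), points as mice and bars as mean ± SD. The top 10 rows are below 0 in all values and the lower 10 rows above 0. Apc and Ddx6 are lower in thymus than in brain in every mouse, and Gatad2b has means of −0.38 in brain and −0.39 in thymus.

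Genes with the smallest p in 1 organ were set against the other organ, a choice that fixes the first value and not the second. In brain these were both Atp6v0a1 probes and Dynlt1b, with thymus means of 0.23 ± 0.35, 0.34 ± 0.59 and 0.077 ± 0.35 and thymus values on both sides of 0, followed by Smarcc2 and Ank2. Smarcc2, a subunit of the SWI/SNF remodelling complex, read −0.53, −0.44, −0.36, −0.49 and −0.46 in brain with probe 10452, against 0.0095, −0.21, 0.027, −0.036 and 1.03 in thymus. Its organs did not overlap, and the thymus mean of 0.16 ± 0.49 rested on mouse 5. Smarcc2 probe 18229 ran the other way, at −0.021 in brain and −0.33 in thymus, and probe 20177 averaged −0.24 in brain and 0.0018 in thymus with overlap. In thymus these were Bcl11b, Rnase1, Trip12, Ddx6 and Surf4, with brain means of 0.23 ± 0.20, −0.23 ± 0.78, 0.058 ± 0.17, −0.21 ± 0.071 and −0.17 ± 0.26. Only Ddx6 had a brain value below 0 in all 5 mice. Surf4 probe 16287 averaged −0.13 in brain and −0.14 in thymus. Rnase1, the pancreatic-type ribonuclease, read −1.97, −2.12, −1.35 and −1.76 in thymus of mice 2 to 5, while its brain values of 0.26, −1.37, −0.31, −0.42 and 0.69 in mice 1 to 5 fell on both sides of 0. Of the 10 probes, 1 (Ddx6) thus held 1 sign in every value of both organs.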

How the data were processed

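Organ RNA of single heterozygous Dll1 mice was hybridised with a wild-type pool of the same organ on 2-colour cDNA arrays. Per the study's methods the arrays were scanned and quantified with GenePix software and processed with TM4. For the normalization the method was not given in the sources used here. The authors deposited 1 table of log2 ratios for the whole series, of which the 20 brain and thymus columns were analysed, with C3H liver and spleen beside single genes. Each array held a constant extreme value at 19 to 134 spots, and these were set to missing. The platform annotation gave 1 symbol to 12771 probes, several to 0 and none to 8023.

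Values were averaged per mouse and organ over both dye orientations. The difference and the average of both organs per mouse were tested against 0 with limma 3.58.1 (lmFit, eBayes) in R 4.3.3 for probes with both organs in at least 3 mice, with Benjamini-Hochberg adjustment over all probes and a threshold of 0.05 (two-sided). Organs were paired because they came from the same animals. The deviations of brain and thymus of mice 1 to 5 from their organ means correlated at 0.017, 0.032, 0.143, −0.0002 and 0.092 over probes. Brain and thymus of different mice correlated at −0.127 to 0.095, and only mouse 3 lay above that range. The deposited values carry no counts, so the number of arrays limits the precision. Simulated data with known changes were used to check the code.

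Named are the 10 probes of smallest p per direction for the difference, the 10 per direction for the shared shift among probes with 1 sign in every mouse measured, the 5 of smallest p in each organ, all of these with values in at least 4 mice in both organs, probes of the Notch lists and of the genes the study named in thymus, and up to 4 genes of each other list. Members, lists and rules were chosen with earlier results of these data known. Alternatives, 18 in number, varied the treatment of extreme values, centring, scaling, the dye orientation, the sign, probes per gene, the variance prior, the unit of replication, the pairing and the mice included.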

Additional observations from a re-analysis of the deposited data

Results flagged for a closer look

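In 19 of the 210 sets of 4 or 5 mice examined, 1 mouse stood far from the others of its organ. Chance alone flags about 1 in 20 such sets.

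In brain, mouse 1 stood apart for 6 probes. It read 2.04 for Hes1 (the others 0.059 to 0.473), 1.91 for Furin probe 18980 (−0.092 to 0.12), 0.423 for Higd1b (−0.224 to −0.145), −1.03 for Wasf2 (−0.314 to −0.077), −1.05 for Kat2b probe 6399 (−0.149 to 0.124) and −0.537 for Spen (0.026 to 0.0855). Mouse 5 in brain read −2.03 for Aifm1 (−0.352 to −0.146), −1.39 for Jag2 probe 27 (−0.182 to 0.169) and 0.052 for Dtx2 (0.211 to 0.22). Mouse 2 read 1.21 for Dll3 (−0.136 to 0.152) and mouse 4 −0.217 for Psen2 probe 17183 (0.192 to 0.277).

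In thymus, mouse 5 stood apart for 5 probes, at 1.30 for Slc26a1 (the others 0.081 to 0.202), 0.564 for Nqo2 (0.167 to 0.247), 0.521 for Birc5 (0.0415 to 0.157), 1.03 for Smarcc2 (−0.209 to 0.027) and −0.976 for Poglut1 probe 12335 (−0.135 to 0.044). Mouse 2 read −0.962 for Rbpj (0.244 to 0.723), mouse 3 read 0.205 for Ank2 (−0.141 to −0.073) and mouse 4 read 0.0295 for Hamp (0.299 to 0.322).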

How the results depend on the processing

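The count of 0 probes past the adjusted threshold held for both tests under every alternative run except those on the unit of replication and the pairing. Without the pairing of organs by mouse (no replicate block) 1 probe passed for the difference, Bcl11b probe 6459 with an adjusted p of 0.0172 (limma). With the 20 arrays as samples and a random block per mouse and organ, 20 probes passed for the difference and 122 for the shared shift. Of the 20, 17 were higher in brain and 3 lower, and of the 122, 15 were higher and 107 lower. The fitted correlation within a block was −0.0085, so arrays of the same mouse and organ entered nearly as separate animals. These counts therefore do not show changes that hold across mice.

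The remaining counts moved as follows, and the cause was not tested. Averaged per gene, over fewer features (8569), an unadjusted p under 0.05 was reached by 626 for the difference and 767 for the shared shift, 60 had 1 sign in both organs of all mice and 139 did not overlap. With the Cy3 arrays alone the shared shift had 2921 (1557 higher) and 1 sign 605 (455 higher), and with the Cy5 arrays alone 1 sign had 418 (52 higher). With the Cy5 arrays of both organs turned, the shared shift had 3593 (2127 higher) and 1 sign 846 (747 higher), and with those of brain turned 799 probes did not overlap. Leaving out each mouse in turn, the shared shift ran from 1186 (without mouse 4) to 2541 (without mouse 3, 1338 of them higher), 1 sign from 236 to 768 and no overlap from 598 to 968, the last 2 over fewer values per probe. For the shared shift more probes were thus higher than lower with the Cy3 arrays alone, with both organs turned and without mouse 3. With the Cy5 arrays alone 1049 were higher and 1531 lower, and over all arrays 792 were higher and 1012 lower. Of the 1348 probes of the difference, 480 were shared with the Cy5 arrays alone, 451 with the Cy3 arrays alone and 1033 when the widest thymus array was left out, an alternative chosen after seeing the data.

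Among named genes, turning the Cy5 arrays of brain gave differences of −0.183 and −0.252 for Atp6v0a1. Turning those of both organs gave differences of −0.141 for Ubash3a, −0.244 for Higd1b, −0.0554 for Trip12, 0.296 for Cux1, 0.0302 for Iffo1, 0.283 for Tle4, 0.327 for Ntrk2, 0.888 for Nradd, 0.507 for Cog1 and 0.123 for Pabpc2. It gave shared shifts of −0.0805 for Hamp, −0.0294 for Scgn, −0.0846 for Gar1, 0.0186 for Apc, 0.144 for Ddx6, 0.119 for Pcf11, 0.166 for Ezh2, 0.049 for Srrm2, 0.0925 for Psmg1 and 0.203 for Nfix. Averaged over its probes H2-DMb1 had a shared shift of −0.0587. Under the other alternatives that could be fitted, the 20 differences and 20 shared shifts kept their sign. With all 5 mice required, 10 and 17 of them could be fitted. Each of these differences and shared shifts had 1 sign in every mouse with both organs, so leaving out a mouse could not turn it. The probes were also chosen by their p on these same arrays, so a kept sign is no support for them.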
